A study of Mus musculus with 13 samples.

Results

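The NKG2, CD94, KLRG1 and KLRE1 receptor genes are lectin-like receptor genes that natural killer (NK) cells use to read the surface of other cells. They were taken from the deposited expression table by gene name: Klrk1, Klrc1, Klrc2, Klrd1, Klre1, Klri2 and Klrg1, which are 7 of its 11989 genes. All 7 passed the filter on low values, and each lay above the filter's minimum in all 13 libraries, so none passed only through a group where it was high. The libraries hold messenger RNA of splenic NK cells from wild-type C57BL/6 mice. Naive cells, for which the labels name no culture, were left unstimulated (replicates 1, 4 and 6) or were given anti-NK1.1 for 6 hours (replicates 1, 4 and 5). Cells labelled LD or HD, abbreviations that are not spelled out, had been cultured for 72 hours with IL-15, short for interleukin-15, on which NK cells depend for survival. LD cells were measured only after anti-NK1.1 (replicates 1 and 3), and HD cells without it (replicates 1 and 2) and with it (replicates 1, 2 and 3). Anti-NK1.1 is an antibody against an activating NK receptor encoded by Klrb1c. For the unstimulated libraries no matching 6 hours is given, so the antibody and those hours cannot be told apart. Nothing in the labels says whether replicates are separate animals or cultures, and the p-values therefore speak only to variation among these samples, some of which could be technical.

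Activating and inhibitory receptors of NK cells are built on the same plan and differ in what they carry inside the cell. Klrk1 encodes NKG2D, an activating receptor for stress-induced ligands of the RAE-1, H60 and MULT1 families, which signals through the adaptors DAP10 (Hcst) and, in mouse, DAP12 (Tyrobp). Klrd1 encodes CD94, a chain with no signalling motif of its own. CD94 pairs with NKG2A (Klrc1), which carries inhibitory motifs, or with NKG2C (Klrc2), which activates through DAP12, and in mouse both pairs bind Qa-1, encoded by H2-T23. KLRE1 pairs with KLRI1 or KLRI2 in rodents, and KLRI2 is the partner without inhibitory motifs. Klrg1 encodes an inhibitory receptor for cadherins and is a usual marker of the most mature NK cells.

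Of the 7 genes, 6 lie within the NK gene complex on mouse chromosome 6 (mm10, GENCODE M21). In order along the chromosome they are Klre1 (129577905 to 129585827, plus strand), Klrd1 (129591782 to 129598775, plus), Klrk1 (129610323 to 129623864, minus), Klrc2 (129647496 to 129660689, minus), Klrc1 (129666015 to 129678973, minus) and Klri2 (129729041 to 129740484, minus). Klrg1 (122270596 to 122282882, minus) lies apart on the same chromosome. All 7 are annotated as protein coding, and no annotated gene overlaps any of them.

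The promoters of Klrk1, Klrc1 and Klrc2 are shown because these neighbours are read from the same strand, and Klrc2 fell with anti-NK1.1 in naive cells while Klrk1 and Klrc1 were not called. Each runs from 250 bases before the RefSeq transcription start (GRCm38.p6, minus strand, 5′ to 3′) to 50 bases after it. RefSeq start sites were found for 4 of the 7 genes (Klrk1, Klrc1, Klrc2 and Klre1), and Klrc2 has a second start site whose window is not printed. Capitals mark matches to TGTGGT, the core bound by RUNX factors, or TGANTCA, the AP-1 site, on either strand.
Klrk1 (chr6:129623815-129624114): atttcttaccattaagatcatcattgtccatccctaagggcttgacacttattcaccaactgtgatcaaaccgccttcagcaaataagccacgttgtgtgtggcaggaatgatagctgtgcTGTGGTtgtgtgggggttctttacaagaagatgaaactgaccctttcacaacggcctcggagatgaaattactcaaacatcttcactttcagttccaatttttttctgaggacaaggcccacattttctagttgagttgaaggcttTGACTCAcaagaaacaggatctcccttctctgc
Klrc1 (chr6:129678924-129679223): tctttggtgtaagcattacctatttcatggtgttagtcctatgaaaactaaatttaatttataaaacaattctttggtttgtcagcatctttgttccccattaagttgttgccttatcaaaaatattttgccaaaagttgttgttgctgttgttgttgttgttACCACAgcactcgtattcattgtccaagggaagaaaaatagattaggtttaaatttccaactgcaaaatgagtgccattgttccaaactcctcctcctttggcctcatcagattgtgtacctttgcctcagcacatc
Klrc2 (chr6:129660547-129660846): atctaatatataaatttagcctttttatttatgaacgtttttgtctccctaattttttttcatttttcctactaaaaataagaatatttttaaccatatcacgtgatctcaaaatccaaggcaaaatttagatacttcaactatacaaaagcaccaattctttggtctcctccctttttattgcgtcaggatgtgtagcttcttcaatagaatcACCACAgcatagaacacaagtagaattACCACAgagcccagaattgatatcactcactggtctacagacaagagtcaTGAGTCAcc
The Klrk1 window held a RUNX core whose first base is 129 bases before the start and an AP-1 site beginning at transcript base 18. The Klrc2 window held RUNX cores on the opposite strand 36 and 9 bases before the start and an AP-1 site beginning at transcript base 42. The Klrc1 window held a RUNX core on the opposite strand 87 bases before the start and no AP-1 site. Of 32851 RefSeq windows of the same length, 16.8% held a RUNX core and 7.81% an AP-1 site, and none of the matches shown overlap each other. A STAT site (TTCNNNGAA, in 8.3% of windows) and a T-box site (GGTGTGA, in 3.98%) were searched in the same way and had no match in these 3 windows. Klrc1 and Klrc2, which encode closely related proteins, shared 45.7% of aligned promoter positions, and Klrc1 and Klrk1 46.3%. These matches describe letters and are no evidence of binding.

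Values are log2 of a normalised count with 1 added, as deposited, and a level in CPM is the back-transformed value after scaling each library to a sum of 1000000. At the median gene a library held 112 to 463 reads. The summed level of 10 NK cell markers was 10900 to 13100 CPM in naive unstimulated, 3980 to 4650 in naive anti-NK1.1, 3240 to 3310 in LD, 10800 to 10900 in HD unstimulated and 4330 to 5960 CPM in HD anti-NK1.1 libraries. Gzma made up most of this sum in both unstimulated groups (means of 6180 and 5640 CPM). Between naive and HD unstimulated cells some other NK markers went down. Means were 540 and 170 CPM for Ncr1 and 2880 and 1160 CPM for Nkg7. For Tbx21 they were 310 and 76.5 CPM and for Itga2 89.5 and 19.6 CPM. Others went up, from 764 to 2600 CPM for Prf1, 54.0 to 209 for Fcgr3 and 95.4 to 111 CPM for Cd244a. In the same libraries 5 of the receptor genes were called lower. The part of the NK markers in that result was not tested. T cell markers (4 of 10 in the table, led by Cd3d and Cd3g) summed to 14.7 to 71.1 CPM, B cell markers (5 of 8) to 0.0583 to 15.8 CPM and markers of macrophages, monocytes and dendritic cells (15 of 15) to 101 to 826 CPM. Of the T cell markers, Cd3e was at 0 in 3 libraries. In bulk RNA, fewer cells of a type and less RNA per cell cannot be told apart. Reads of Klrc1 and Klrc2 may be split between them. Of the 50-base windows of Klrc1 transcripts 36.6% also occur in Klrc2, and of those of Klrc2 12.4% occur in Klrc1. Counting every other gene, the shares were 38.6% for Klrc1 and 16.3% for Klrc2, so some reads may be shared with a further gene.

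In naive cells Klrg1, Klrc2 and Klrd1 were lower after anti-NK1.1, the genes of an inhibitory receptor, an activating receptor and its shared chain. The genes of NKG2D, NKG2A and KLRI2 were not called. The 3 lower genes fell by 3.35, 1.74 and 0.97 on the log2 scale. This is 3 of 7 genes lower, where 14.7% of the 11543 tested genes were lower and 14.5% higher (29.2% in either direction, limma, Benjamini-Hochberg adjusted p under 0.05). The median change of the 7 was -0.96, against 0.007 over all tested genes. The groups did not overlap for 42.3% of all tested genes and for 4 of the 7. Such separation was common in the other comparisons too. It held for 59.5% of tested genes in the HD response and 55.8% for unstimulated HD against naive cells (4 and 7 members). After anti-NK1.1 it held for 55.4% in HD against naive, 44.0% in LD against naive and 41.7% in HD against LD cells (5, 1 and 5 members).

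Klrg1 stood at 11.37, 10.62 and 10.88 in naive unstimulated replicates 1, 4 and 6, and at 7.53, 7.45 and 7.83 in naive anti-NK1.1 replicates 1, 4 and 5. All 3 stimulated libraries lay far under the lowest unstimulated one. In levels this was 154 ± 41.5 CPM (SD, n = 3) against 14.8 ± 2.11 CPM (SD, n = 3), the latter resting on 190, 152 and 192 recovered reads. The fall was 10.2-fold (log2 change -3.35 ± 0.23 SE, limma adjusted p = 2.22e-07). T cell markers, from cells that can carry KLRG1, summed to 61.5 to 71.1 CPM before and 29.2 to 33.0 CPM after stimulation. The markers in this sum did not move together. Mean levels fell from 34.5 to 17.4 CPM for Cd3d and from 29.1 to 9.39 CPM for Cd3g. At low levels, Cd3e rose from 1.86 to 3.75 CPM and Cd5 from 0.159 to 0.32 CPM. Basophil and mast cell markers (6 of 6) summed to 92.1 to 155 CPM before and 33.2 to 49.9 CPM after stimulation. Markers of other innate lymphoid cells (5 of 6 in the table) went up in the same libraries, from 100 to 229 CPM to 298 to 321 CPM, with Cxcr6 at a mean of 11.4 and then 136 CPM. The part of these cells in the falls of Klrg1, Klrc2 and Klrd1 was not tested.

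Klrc2, the gene of the activating CD94 partner NKG2C, was tightly grouped at 8.44, 8.47 and 8.39 in unstimulated naive libraries and at 6.65, 6.46 and 6.98 after anti-NK1.1. The groups did not overlap, and the level went from 26.1 ± 0.70 to 7.88 ± 1.49 CPM (SD, n = 3 each), the latter from 107, 77 and 110 reads. The fall was 3.33-fold (-1.74 ± 0.32 SE, limma adjusted p = 0.00112).

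Klrd1, the gene of the CD94 chain, stood at 12.27, 11.97 and 12.44 unstimulated and at 11.90, 11.01 and 10.85 stimulated. Stimulated replicate 1 lay just under the lowest unstimulated library, and replicates 4 and 5 lay well under it. The change was -0.97 ± 0.25 SE (limma adjusted p = 0.0094), from 365 ± 59.2 to 195.0 ± 81.3 CPM (SD, n = 3 each).

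Klrc1, the gene of the inhibitory partner NKG2A, gave 9.67, 9.85 and 9.73 without and 9.80, 9.48 and 9.85 with anti-NK1.1, so the groups overlapped. Its change was -0.04 with a 95% interval from -0.46 to 0.39. The interval of Klrd1, from -1.50 to -0.44, meets it at the edge, and that of Klrc2 was -2.42 to -1.05. Klrk1, the gene of NKG2D, gave 12.06, 12.19 and 12.33 against 12.20, 12.07 and 12.09, again overlapping. Its change was -0.07 (95% interval -0.47 to 0.33). Klri2 went from 11.69, 11.92 and 12.06 to 11.75, 11.39 and 11.73, with a change of -0.27 (95% interval -0.71 to 0.17). None of these 3 passed the test.

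Klre1, the gene of the KLRI2 partner, was set apart by 1 library. It stood at 11.98, 11.98 and 14.01 in unstimulated replicates 1, 4 and 6, the last equal to 1248 CPM against 305.5 and 306.5 CPM in the other two. The stimulated libraries lay close together at 11.68, 11.68 and 11.73, under all unstimulated ones. The change was -0.96 ± 0.45 SE (limma adjusted p = 0.127), and without unstimulated replicate 6 it was -0.28.

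**Figure D1:**
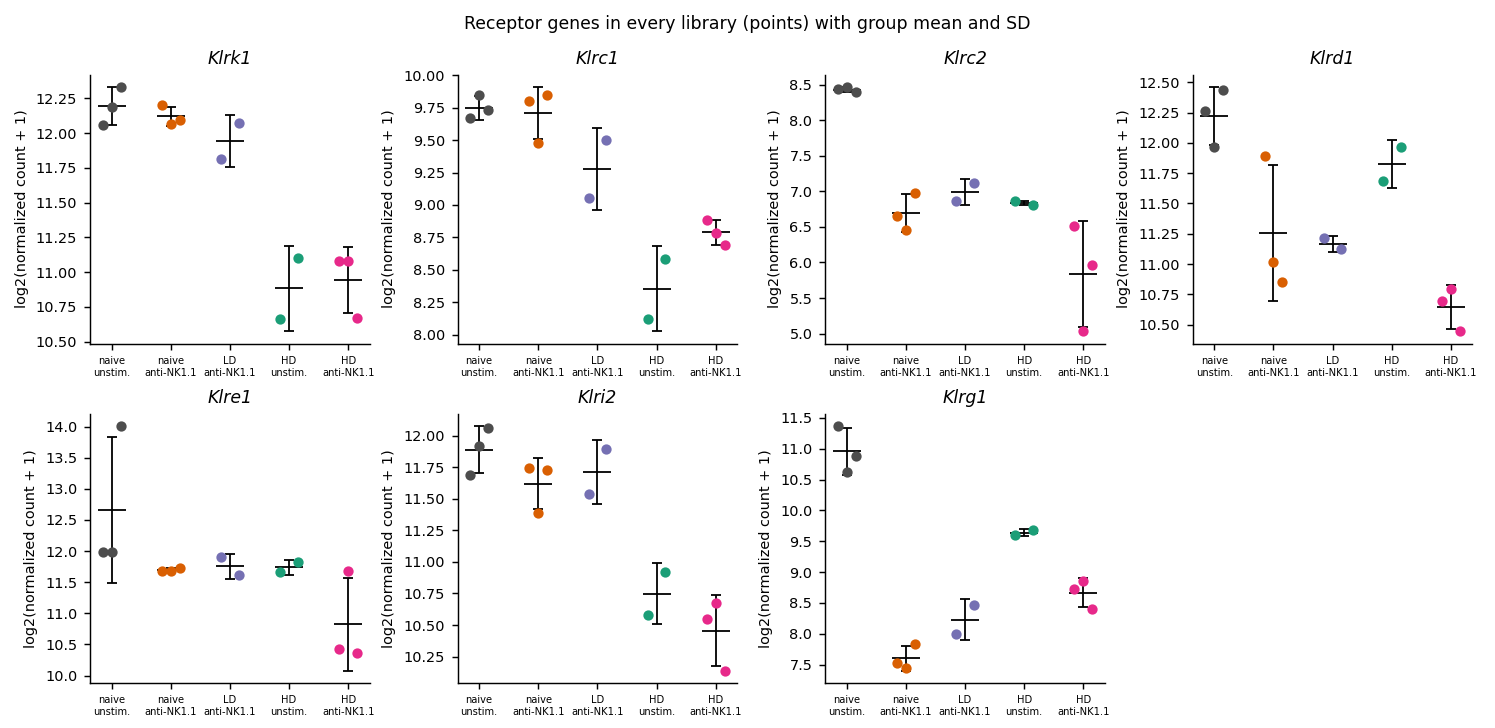
Deposited log2 values (vertical axis) of the 7 receptor genes in every library (points), by group, with the group mean and SD. Klrg1 is lowest in naive cells after anti-NK1.1, Klrc1 keeps its level there, and 1 naive unstimulated library at 14.01 stands far above the others for Klre1.

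In HD cells the 3 genes called lower after anti-NK1.1 were again Klrg1, Klrc2 and Klrd1. This is 3 of 7 lower, where 17.2% of tested genes were lower and 15.9% higher (33.1% in either direction), with a median change of -0.92 against -0.01 over all genes. Leaving out HD unstimulated replicate 2 ended all 3 calls (limma adjusted p = 0.0552 for Klrd1, 0.0634 for Klrg1 and 0.14 for Klrc2).

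Klrd1 stood at 11.68 and 11.96 in HD unstimulated replicates 1 and 2 and at 10.70, 10.80 and 10.45 in HD anti-NK1.1 replicates 1, 2 and 3. The groups were far apart, at 276 ± 37.6 CPM (SD, n = 2) and 122.0 ± 14.98 CPM (SD, n = 3), with a change of -1.18 ± 0.28 SE (limma adjusted p = 0.00475). Klrg1 went from 9.60 and 9.68 to 8.73, 8.86 and 8.40. All stimulated values lay lower, and the level went from 60.4 ± 2.61 CPM (SD, n = 2) to 30.9 ± 4.85 CPM (SD, n = 3), with a change of -0.98 ± 0.26 SE (limma adjusted p = 0.00935). Klrc2 went from 6.86 and 6.81 to 6.51, 5.03 and 5.97. It too was lower in every stimulated library, but these spread widely on 68, 27 and 65 reads, and the fall of 2.0-fold (SE 0.36 on the log2 scale) passed narrowly (limma adjusted p = 0.0438). Its call was also lost without HD unstimulated replicate 1 (-0.98, limma adjusted p = 0.149), HD anti-NK1.1 replicate 2 (-0.60, limma adjusted p = 0.166) or replicate 3 (-1.07, limma adjusted p = 0.0629).

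Klrc1 was the member whose HD libraries lay higher with anti-NK1.1, at 8.89, 8.79 and 8.69 against 8.12 and 8.59. The groups did not overlap, yet the change of 0.43 ± 0.22 SE did not pass (95% interval -0.04 to 0.91, limma adjusted p = 0.151). Klrk1 gave 10.66 and 11.10 unstimulated and 11.08, 11.08 and 10.67 stimulated, which overlap (0.06, 95% interval -0.39 to 0.51). Klri2 gave 10.58 and 10.92 against 10.55, 10.68 and 10.14, also overlapping (-0.29 ± 0.23 SE, limma adjusted p = 0.354). Klre1 gave 11.66 and 11.82 against 10.43, 11.68 and 10.36, so that HD anti-NK1.1 replicate 2 stayed among the unstimulated libraries and the other two lay lower (-0.92 ± 0.50 SE, limma adjusted p = 0.182).

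Whether the response to anti-NK1.1 differed between HD and naive cells was tested as the difference of the responses. Klrg1 was the 1 member that passed, where 7.22% of tested genes were higher and 8.01% lower in this difference (15.2% in either direction). The fall of Klrg1 was smaller in HD than in naive cells by 2.38 ± 0.34 on the log2 scale (limma adjusted p = 3.97e-04), and stayed between 2.17 and 2.54 whichever library was left out. For Klrd1 the difference was -0.21 (limma adjusted p = 0.76) and for Klrc2 0.74 (limma adjusted p = 0.335), neither of which passed.

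Without stimulation, HD cells held less of 5 receptor messages than naive cells: Klrk1, Klrc1, Klrc2, Klri2 and Klrg1. This is 5 of 7 lower, where 17.3% of tested genes were lower and 16.6% higher (33.9% in either direction), and the median change was -1.31 against 0.02 over all genes. The naive unstimulated libraries used here are the same as in the naive response. The HD libraries were all in library pool 1 and the naive ones in pool 2, so culture and pool cannot be told apart in this comparison.

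For Klrk1 the HD values of 10.66 and 11.10 lay under all naive values (12.06, 12.19 and 12.33). The level went from 356 ± 33.8 CPM (SD, n = 3) to 144.5 ± 30.7 CPM (SD, n = 2), a change of -1.31 ± 0.21 SE (limma adjusted p = 2.74e-04). Klrc1 went from 65.2 ± 4.20 CPM (SD, n = 3) to 25.0 ± 5.64 CPM (SD, n = 2), without overlap and with nearly the same change (-1.39 ± 0.22 SE, limma adjusted p = 2.64e-04). Klrg1 fell by 1.32 ± 0.26 SE (limma adjusted p = 0.00129), to 60.4 CPM from 154 CPM.

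Klri2 went from 289 ± 36.7 CPM (SD, n = 3) to 131 ± 21.8 CPM (SD, n = 2), also without overlap (-1.14 ± 0.23 SE, limma adjusted p = 0.00155). Klrc2 fell by 1.60 ± 0.36 SE (limma adjusted p = 0.00345), to 8.58 ± 0.19 CPM (SD, n = 2) on 75 and 101 reads. Klrd1, the chain that NKG2A and NKG2C both need, was not called (-0.40, limma adjusted p = 0.288). Its HD values of 11.68 and 11.96 lay under the naive ones, but only just. HD unstimulated replicate 2 (302.3 CPM) and naive unstimulated replicate 4 (302.7 CPM) were nearly equal. Klre1 was not called either (-0.92, limma adjusted p = 0.178), and without naive unstimulated replicate 6 its change was -0.24. With library pool as a factor, whose size rests on the 2 LD libraries alone, none of the 5 calls held (limma adjusted p 0.109 to 0.289). The changes were then -1.05 for Klrk1, -0.94 for Klrc1, -1.34 for Klrc2, -0.78 for Klri2 and -0.84 for Klrg1. Over all tested genes the calls of this comparison went from 3909 to 1006 with that factor.

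**Figure D2:**
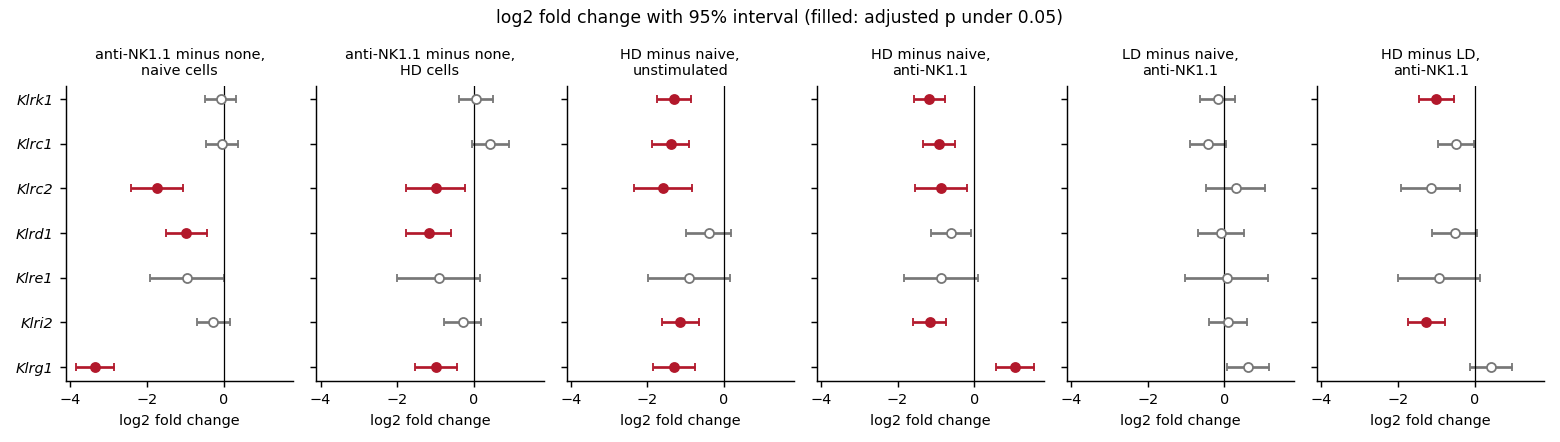
Log2 fold change (horizontal axis) with its 95% interval for each of the 7 genes in 6 comparisons, filled where the adjusted p was under 0.05. Klrg1 moved by -3.35 in naive cells after anti-NK1.1, and Klrk1, Klrc1 and Klri2 were called lower in unstimulated HD than naive cells and were not called after anti-NK1.1 within either culture state.

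After anti-NK1.1, HD cells had less Klrk1, Klrc1, Klrc2 and Klri2 and more Klrg1 than naive cells. This is 4 of 7 lower and 1 higher, where 22.4% of tested genes were lower and 21.1% higher (43.5% in either direction). Klrk1 stood at 11.08, 11.08 and 10.67 in HD against 12.20, 12.07 and 12.09 in naive libraries, far apart (-1.18 ± 0.19 SE, limma adjusted p = 2.04e-04). Klri2 was similarly separated, at 10.55, 10.68 and 10.14 against 11.75, 11.39 and 11.73 (-1.16 ± 0.20 SE, limma adjusted p = 4.40e-04). Klrc1 was at 33.5 ± 2.30 CPM in HD and 63.8 ± 8.52 CPM in naive cells (SD, n = 3 each, -0.92 ± 0.20 SE, limma adjusted p = 0.00202). Klrg1 went the other way, at 8.73, 8.86 and 8.40 against 7.53, 7.45 and 7.83, without overlap (1.06 ± 0.23 SE, limma adjusted p = 0.00205). For Klrc2 the libraries overlapped, since HD replicate 1 at 6.51 lay above naive replicate 4 at 6.46 (-0.86 ± 0.32 SE, limma adjusted p = 0.0412). That call was lost without naive replicate 1 (limma adjusted p = 0.0778) or 5 (limma adjusted p = 0.134), or without HD replicate 2 (-0.46, limma adjusted p = 0.215) or 3 (limma adjusted p = 0.0616). Klrd1 was not called (-0.61, limma adjusted p = 0.0607), but without naive replicate 5 it was (-0.81, limma adjusted p = 0.0276), and without naive replicate 1 its value was -0.29 (limma adjusted p = 0.311). Klre1 was not called (-0.87, limma adjusted p = 0.132), but without HD anti-NK1.1 replicate 2 it was (-1.30, limma adjusted p = 0.0364), and its value was -0.67 without replicate 1 and -0.64 without replicate 3 (limma adjusted p = 0.321 and 0.332).

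In LD against naive cells after anti-NK1.1, none of the 7 genes was called by limma, where 13.6% of tested genes were called (6.57% higher, 7.0% lower), and 1 of the 7, Klrg1, had an unadjusted p under 0.05. With so low a share over all genes, 0 of 7 is no result about the members, and the 95% intervals were wide, from -0.91 to 0.04 for Klrc1 (-0.43), -0.47 to 1.06 for Klrc2 (0.29) and -1.02 to 1.14 for Klre1 (0.06). Klrg1 stood at 7.99 and 8.47 in LD replicates 1 and 3, above the 3 naive values, with a change of 0.63 ± 0.26 SE (limma adjusted p = 0.122). Klrk1 stood at 11.81 and 12.07 and Klri2 at 11.54 and 11.90, values that overlap those of naive stimulated cells. HD against LD gave 2 of 7 genes lower, where 5.33% of tested genes were lower and 3.27% higher (8.6% in either direction). These were Klrk1 (2.0-fold, SE 0.21 on the log2 scale, limma adjusted p = 0.00821) and Klri2 (-1.26 ± 0.23 SE, limma adjusted p = 0.00306), and neither was called without LD replicate 3 (-0.87 and -1.08, limma adjusted p = 0.0989 and 0.0526). Klrc2 was called without HD anti-NK1.1 replicate 1 (-1.49, limma adjusted p = 0.02), and its value over all libraries was -1.15 (limma adjusted p = 0.0619) and without HD anti-NK1.1 replicate 2 it was -0.75 (limma adjusted p = 0.183). The comparisons after anti-NK1.1 share their HD, LD or naive libraries with one another.

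The library pool could be set beside these results because LD replicate 1 was in pool 1 and LD replicate 3 in pool 2. Between these 2 LD libraries the median absolute difference over all tested genes was 0.40, and the members differed by -0.47 (Klrg1) to 0.285 (Klre1, pool 1 minus pool 2). Klrg1 and Klrc1 (-0.45) lay beyond that median, and Klrk1 (-0.26), Klri2 (-0.36) and Klrc2 (-0.26) within it. Within pool 1, HD anti-NK1.1 cells minus LD replicate 1 gave -0.87 for Klrk1, -1.08 for Klri2 and 0.67 for Klrg1. Within pool 2, LD replicate 3 minus naive anti-NK1.1 cells gave -0.05 for Klrk1, 0.28 for Klri2 and 0.86 for Klrg1. With pool as a factor, Klrg1 stayed called in HD against naive stimulated cells (1.54, limma adjusted p = 0.0468) and the other 4 called genes did not. These were Klrk1 (-0.92, limma adjusted p = 0.136), Klri2 (-0.80, limma adjusted p = 0.22), Klrc1 (-0.47, limma adjusted p = 0.457) and Klrc2 (-0.60, limma adjusted p = 0.601).

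The ratios of genes whose products pair, and of the inhibitory Klrc1 to the activating Klrk1, were followed within each library. The log2 difference of the inhibitory Klrc1 minus its chain gene Klrd1 was -2.60, -2.12 and -2.71 in naive unstimulated replicates 1, 4 and 6 and -2.09, -1.53 and -1.01 in naive anti-NK1.1 replicates 1, 4 and 5. The groups lie next to each other without overlap, and their means differ by 0.93. In HD cells the difference was -3.56 and -3.38 without and -1.81, -2.01 and -1.76 with anti-NK1.1. Here the groups are well apart, with means that differ by 1.61.

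Klrc1 minus Klrk1 ran from -2.76 to -1.98 over the 13 libraries. Its groups did not overlap in the HD response, where it was higher by 0.37 with anti-NK1.1, or in HD against LD, where it was higher by 0.51 in HD cells. Exact two-sided permutation tests over libraries were run on 18 such differences. The smallest p that 3 against 3 or 2 against 3 libraries allow is 0.1, so none could pass, and the lowest adjusted p was 0.36. An exact p of 0.1 was reached by 5 of the 18: both responses and HD culture (-0.99) of Klrc1 minus Klrd1, and the HD response and HD against LD of Klrc1 minus Klrk1. These are the 5 whose groups did not overlap. Among single genes such separation was common, at 59.5% of tested genes in the HD response. Klre1 minus Klri2, the gap between the genes of a receptor pair, overlapped between groups in each comparison.

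**Figure D3:**
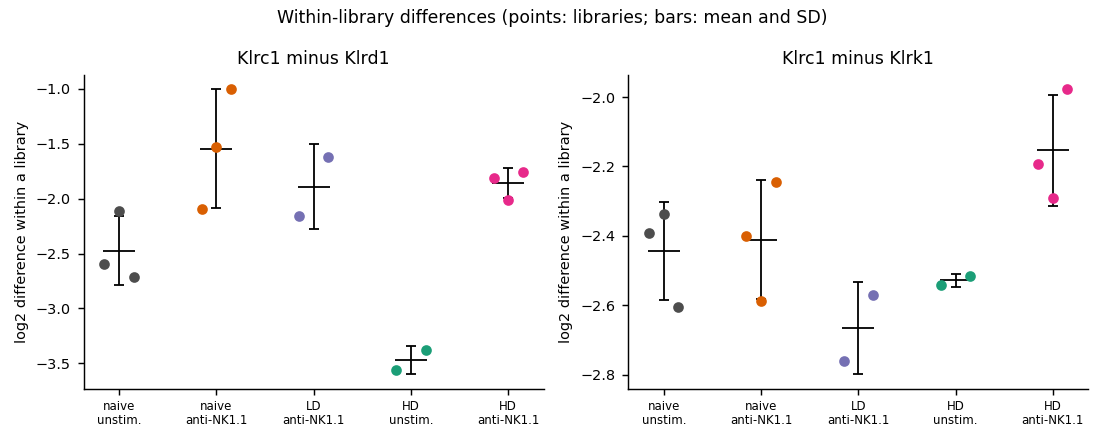
Log2 difference within each library (points) of Klrc1 minus Klrd1 and Klrc1 minus Klrk1, by group, with mean and SD. Klrc1 lies closest to Klrd1 after anti-NK1.1, at -1.01 in 1 naive library, and farthest in unstimulated HD cells, at -3.56 and -3.38.

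Levels between genes were compared as CPM per kilobase of the longest principal transcript, although the labels do not say whether reads cover whole transcripts and the Klrc1 transcript used is short. Klrc2 was the lowest of the 7 in each of the 5 groups, from 22.7 ± 0.61 CPM per kilobase (SD, n = 3) in naive unstimulated to 4.03 ± 1.92 (SD, n = 3) in HD anti-NK1.1 cells. Klrd1, Klrk1 and Klre1 took the first 3 places in each group. In naive unstimulated cells Klrd1 (408 ± 66.2) stood above Klrk1 (280.0 ± 26.6) without overlap, and after anti-NK1.1 Klrk1 (266 ± 13.1) and Klrd1 (218 ± 90.9) overlapped. Klrg1 took the fourth place in both unstimulated groups and the sixth in all 3 stimulated groups. Its libraries overlapped those of Klrc1, the next gene, in both unstimulated groups. In HD anti-NK1.1 cells they overlapped those of Klri2, the gene just above.

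Across groups the order differed between members. Klrk1 was highest in naive unstimulated, then naive anti-NK1.1, then LD cells, neighbours that overlapped, and lowest in both HD groups, which overlapped each other and lay under LD. Klrc1 had the same order, but its HD unstimulated libraries lay under the HD anti-NK1.1 ones without overlap. Klrg1 was highest in naive unstimulated cells, then HD unstimulated, HD anti-NK1.1, LD and naive anti-NK1.1 cells, and only HD anti-NK1.1 and LD overlapped. Over the 13 libraries Klrk1 and Klri2 had a Pearson r of 0.965, Klrk1 and Klrc1 0.942, and Klrk1 and Klrg1 0.063. These r values describe libraries that share pools and group structure.

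**Figure D4:**
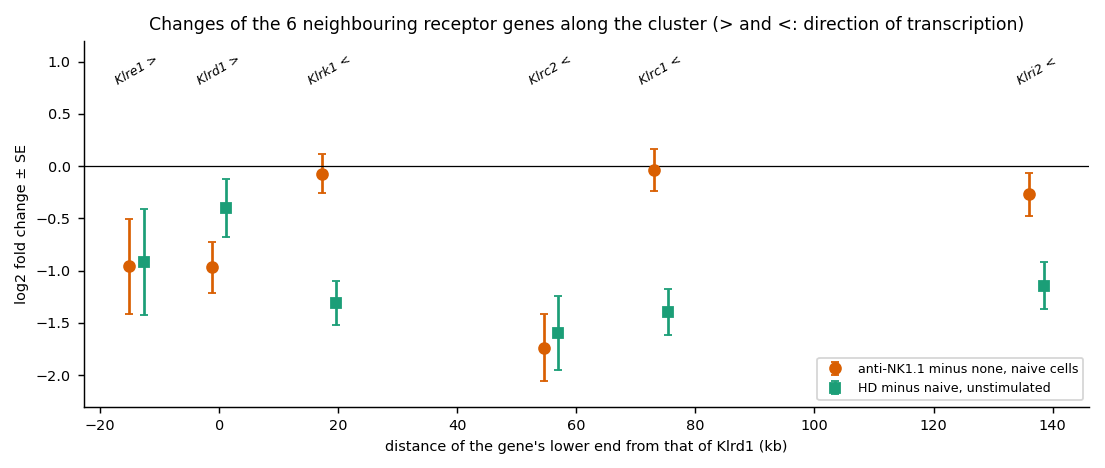
Log2 fold change ± SE (vertical axis) of the 6 neighbouring genes against the distance of each gene's lower end from that of Klrd1 in kilobases (horizontal axis), for anti-NK1.1 in naive cells (circles) and for HD against naive unstimulated cells (squares). Klrk1 and Klrc1 are near 0 after anti-NK1.1 while Klrc2, which lies between them, is at -1.74, and all 3 are below -1 in HD cells.

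Of all other tested genes, those with the pattern most like each member were found by Pearson r over the 13 libraries. For Klrk1 they were Itga2b (0.978), Limd2 (0.975) and Gp9 (0.968), and for Klri2 Limd2 (0.983), Vmac (0.965) and Pf4 (0.961). Itga2b, Gp9 and Pf4 are genes of the platelet lineage. Itga2b was at 16.3 to 26.0 CPM in naive unstimulated and 0.0291 to 0.198 CPM in HD unstimulated libraries, and Pf4 at 29.9 to 47.5 and 0.513 to 1.49 CPM, so platelet genes moved with the lower Klrk1 and Klri2 of HD cells. Their part in the result was not tested. Markers of macrophages, monocytes and dendritic cells (15 of 15) also went from 703 to 826 CPM to 174 to 247 CPM.

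The nearest genes to Klrc1 were Tgif1 (0.979), Eif4a2 (0.974) and Fam53a (0.973), and to Klrc2 Smarcd3 (0.967), Sept4 (0.955) and Cpq (0.953). Those nearest to Klrd1 were Slc41a3 (0.951), Rtp4 (0.942) and Gcdh (0.937), and to Klre1 Gabarap (0.952), Stk17b (0.92) and Dctn2 (0.909). Klrg1 was closest to Cd52 (0.961), Cd48 (0.96) and Iba57 (0.957), Cd48 being the gene of the ligand of the NK receptor 2B4.

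The adaptors that carry the activating signals fell with anti-NK1.1 in both culture states, in which Klrk1 was not called. Hcst, the gene of DAP10, fell by 1.32 ± 0.23 SE in naive (limma adjusted p = 8.03e-04) and 0.75 ± 0.26 SE in HD cells (limma adjusted p = 0.0385). Tyrobp, the gene of DAP12 and partner of NKG2C, fell by 1.99 ± 0.24 SE (limma adjusted p = 3.84e-05) and 0.99 ± 0.27 SE (limma adjusted p = 0.0119). In unstimulated HD cells both were lower than in naive cells, with a log2 change of -1.34 for Hcst (limma adjusted p = 0.0012) and -1.17 for Tyrobp (limma adjusted p = 0.00442), in the same libraries as Klrk1 and Klrc2. Between the LD libraries of pool 1 and pool 2 the difference was -0.70 for Hcst and -0.66 for Tyrobp, in the same direction. Within pool 1, HD anti-NK1.1 cells minus LD replicate 1 gave -0.29 for Hcst and 0.15 for Tyrobp.

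Among 16 genes that signal downstream of activating receptors, 6 fell and 1 rose in naive cells and 8 fell and 2 rose in HD cells after anti-NK1.1. Over all tested genes 14.7% fell and 14.5% rose in naive cells, and 17.2% fell and 15.9% rose in HD cells. Lck, a kinase of the receptor-proximal step, fell in both (-2.17 and -1.72), as did Plcg2, a phospholipase (-1.80 and -1.41), and Syk, a kinase recruited by DAP12 (-1.10 and -2.11), all with limma adjusted p under 0.05. Lat, an adaptor at the membrane, fell in naive cells (-2.77), and its value in HD cells was 0.15. Of 7 genes that act downstream of inhibitory receptors, none was called in naive cells by limma, 1 having an unadjusted p under 0.05, and 3 fell in HD cells, where 29.2% of all tested genes were called in naive cells and 17.2% fell in HD cells. Those 3 were Csk (-1.27), Inpp5d (-1.61), the gene of the phosphatase SHIP-1, and Abl1 (-1.52).

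H2-T23, the gene of the ligand Qa-1, rose in naive cells by 1.97 ± 0.41 SE (limma adjusted p = 0.00248), in the libraries where Klrc2 fell and Klrc1 gave -0.04. The level of H2-T23 was low, at 1.52 ± 0.20 CPM unstimulated and 6.16 ± 0.82 CPM stimulated (SD, n = 3 each). In HD cells its value was -0.06 (limma adjusted p = 0.937). Ulbp1, a gene of an NKG2D ligand, was higher in unstimulated HD than naive cells by 1.62 ± 0.36 SE (limma adjusted p = 0.00334), where Klrk1 was lower. Of the 20 genes listed as ligands or for their presentation, 10 were tested, and in naive cells 1 rose and 1 fell, near the shares over all tested genes (14.5% and 14.7%).

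Of 14 genes of NK maturation, 10 were lower and 2 higher in unstimulated HD than naive cells, in the same libraries as the lower Klrg1, where 17.3% of all tested genes were lower and 16.6% higher. The log2 change was -2.45 for Cd7, -3.09 for Zeb2, a transcription factor of late maturation, and 1.30 for Kit, a gene of early cells. After anti-NK1.1 6 fell and 2 rose in naive cells, and 7 fell and 5 rose in HD cells, beside 14.7% and 14.5% of all tested genes in naive and 17.2% and 15.9% in HD cells. Zeb2 rose by 3.68 in HD cells (limma adjusted p = 6.21e-08), where Klrg1 fell by 0.98, and its value in naive cells was -0.29.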

How the data were processed

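Messenger RNA of 13 mouse splenic NK cell samples was sequenced. Per the labels' protocols, poly(A) RNA was reverse transcribed, libraries were strand specific and pooled after the first strand, and per the submitters' processing notes the genome build was mm10. The aligner, counting tool and annotation are not given in the sources used here. The deposited values, in a table named as counts, are log2 values of quantile-normalised counts with 1 added, as read from the values themselves: they run from 0 to 17.92 in libraries with nearly the same distribution. Library pools are those in the file header. Groups came from the labels, and for naive anti-NK1.1 replicates 1 and 4 from the titles, because their stimulation label gives only the duration.

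The 13 libraries entered one 5-group model in limma 3.58.1 (R 4.3.3, variance trend, residual df 8, prior df 6.3). A gene was kept where 2 or more libraries reached a back-transformed value of 10, so 446 genes dropped out and 11543 were tested. Each of 7 contrasts was tested two-sided with Benjamini-Hochberg adjustment over all tested genes and called under 0.05. The limma step was also run on simulated data in which far fewer genes changed than were called here. That run is not used as support. Recovered reads come from the order of the values in a library and reach only the lower-level genes (up to rank 7000), so depth is known for few members. Quantile normalisation removes differences in total RNA.

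The members and the gene lists were chosen with earlier results of these data known. All 7 members are named, with both adaptors, up to 3 genes with the smallest p per list and response, up to 2 lectin genes and the 3 most alike genes per member, some of which are not printed. Promoters come from RefSeq, positions and transcript lengths from GENCODE M21, which held 11983 of the 11989 identifiers. Alternatives were other filters, settings and scalings, a replicate block, the compared groups alone and each library left out. Promoters were aligned with Biopython 1.88. Other steps used pandas 2.3.3, scipy 1.17.1, matplotlib 3.10.9 and numpy 2.4.6 under Python 3.11.15.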

Additional observations from a re-analysis of the deposited data

Results flagged for a closer look

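The response to anti-NK1.1 was tested for a difference between HD and naive cells (limma, HD response minus naive response, log2 scale). A difference was called for 15.2% of all tested genes and for 8 of the genes described. Among the receptors this was Klrg1, at 2.38 ± 0.34 SE (adjusted p = 3.97e-04), with all 3 stimulated libraries lower than the unstimulated ones in both culture states. Among the partners, the difference was 2.92 ± 0.36 SE for Lat (adjusted p = 9.39e-05) and 3.97 ± 0.30 SE for Zeb2 (adjusted p = 1.16e-06). It was negative for Inpp5d (-2.07 ± 0.33 SE, adjusted p = 8.57e-04), Abl1 (-1.55 ± 0.44 SE, adjusted p = 0.0279) and Kit (-2.79 ± 0.56 SE, adjusted p = 0.00404). For H2-T23 it was -2.02 ± 0.61 SE (adjusted p = 0.0376). For Tap1, whose product transports peptides for Qa-1 and other class I molecules, it was -1.94 ± 0.31 SE (adjusted p = 7.85e-04). The partner genes named here had been picked by a small p in the naive or HD response of these same data. Their number is therefore no result about the gene lists. Groups of 2 or 3 libraries were too small to test a single library as standing apart.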

How the results depend on the processing

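Of 693 alternative values for the 7 genes, 632 kept their direction and side of the threshold, 33 lost a call, 5 gained one and 23 changed sign. Median-ratio scaling moved the median of all genes by at most 0.0393 and changed no call. Leaving out 1 library gave 0 to 3 called genes for the HD response (0 without HD unstimulated replicate 2) and 0 to 3 for HD against LD (0 without LD replicate 3). Library pool as a factor, added after the data had been seen, left 0 called genes for unstimulated HD against naive cells, 1 for HD against naive stimulated cells and 0 for HD against LD. With it the calls over all tested genes also went down, from 3909 to 1006, 5023 to 1107 and 993 to 444.

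Deviations of same-numbered libraries correlated between -0.143 and 0.162, so the numbers were not taken as pairs. A replicate block gave 2 called genes in the naive response, 2 in the HD response, 4 for HD culture, 3 for HD against naive stimulated cells, 3 for HD against LD and 1 for the difference of the responses, with calls over all genes down to 1864 in the naive response and 2296 in HD against naive stimulated cells. Under it Klrd1 lost its call in the naive response (-0.66, limma adjusted p = 0.127), Klrc2 in the HD response (0.0556) and HD culture (0.0933), and Klrc1 (0.0617), Klrc2 (0.45) and Klrg1 (0.89, limma adjusted p = 0.114) in HD against naive stimulated cells. Klrd1 gained one there (-1.12, limma adjusted p = 0.0319), and Klre1 in HD against LD (-1.23, limma adjusted p = 0.0417). Uncalled values changed sign with the replicate block for Klrk1 in the naive response (0.0115) and for Klre1 (-0.391) and Klri2 (0.00973) in the difference of the responses, and with the pool factor for Klre1 in LD against naive cells (-0.0827).

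Leaving out 1 library turned the sign of uncalled values: Klrc1 in the naive response ran from -0.108 to 0.0764 and Klrk1 in the HD response from -0.158 to 0.278. In LD against naive cells Klrd1 ran from -0.288 to 0.234, Klri2 from -0.085 to 0.275 and Klre1 from -0.0827 to 0.202. In the difference of the responses Klri2 ran from -0.192 to 0.149, Klre1 from -0.633 to 0.382, Klrd1 from -0.408 to 0.113 and Klrk1 from -0.0853 to 0.351. The cause of these changes was not tested. A count model on recovered reads, planned as an alternative, was not run because most of the 7 genes lie above the range where reads can be recovered. Groups of 2 or 3 libraries limit each comparison, and Klrc2 rests on 27 to 110 reads in stimulated naive and in HD libraries.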

Other observations

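The neighbours Klrc3 and Klri1, picked after their values had been seen, encode other partners of the CD94 and KLRE1 chains. Klrc3, the gene of NKG2E, fell in naive cells after anti-NK1.1 by 2.01 ± 0.37 SE (limma adjusted p = 0.00119), and its value in HD cells was -0.96 (limma adjusted p = 0.0917). In unstimulated HD against naive cells its log2 change was -1.91 ± 0.42 SE (limma adjusted p = 0.00284), beside -1.60 for Klrc2. Klri1, the gene of the inhibitory KLRE1 partner, fell after anti-NK1.1 in naive cells by 1.70 ± 0.31 SE (limma adjusted p = 0.00117) and in HD cells by 1.40 ± 0.35 SE (limma adjusted p = 0.00723), where the activating partner Klri2 gave -0.27 and -0.29 and was not called. In unstimulated HD against naive cells Klri1 gave 0.44 (limma adjusted p = 0.361).

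Of 22 tested lectin genes of the NK gene complex outside the 7, 13 fell and 3 rose in naive cells after anti-NK1.1, with a median change of -0.87 against 0.007 over all genes. Over all tested genes 14.7% fell and 14.5% rose. In HD cells 6 fell and 4 rose, where 17.2% of all genes fell and 15.9% rose. In unstimulated HD against naive cells 10 were lower and 1 higher, where 17.3% of all genes were lower and 16.6% higher.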
